A study of Mus musculus with 2 samples.

Results

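A set of 10 genes that mark fibroblasts of the arterial adventitia, the outer coat of an artery, was followed in RNA-seq data of mouse mesenteric artery. The genes were taken by symbol (Pdgfra, Dcn, Lum, Pi16, Dpt, Cd34, Ly6a, Gsn, Clec3b and Serpinf1), and each matched 1 Ensembl identifier among the 55573 genes of the deposited tables. All 10 genes passed the minimum of 10 reads in both libraries together, as did 14829 genes in all. The arteries came from wild type C57BL/6 mice, 10 weeks old. One library was made from arteries in 5 mM K+ (control) and 1 from arteries in 60 mM K+, which depolarizes smooth muscle cells, with 60 min given for both. Each library pooled tissue from 2 mice, so there was 1 library per condition, no replicate check of any difference and no p-value. A passage of the methods describes control tissue as the distal part of the ligated arteries, harvested before the rest was perfused with high K+. The last step before that harvest was an incubation without perfusion. Under that description, arterial segment, time in solution and perfusion cannot be told apart from K+. The control library held 10480918 reads on genes and the depolarized library held 11289598.

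Adventitial fibroblasts lie outside the smooth muscle layer and build the collagen-rich coat that anchors the vessel. They are recognized by the receptor PDGFRα, by the small leucine-rich proteoglycans that they secrete, and, in a subset that surrounds vessels and is described as progenitor-like, by PI16, CD34 and SCA-1, the product of Ly6a. In the adventitia they share space with nerves, macrophages, adipocytes and lymphatic vessels. Several of the 10 genes are not restricted to fibroblasts: CD34 and SCA-1 are also found on endothelial cells, and gelsolin, the product of Gsn, is abundant in smooth muscle. In bulk tissue, fewer cells of a type and less RNA per cell cannot be told apart.

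The arteries held all 10 transcripts at levels that spanned more than 2 orders of magnitude. Levels between genes were compared as FPKM, that is fragments per kilobase of gene and per 1000000 reads, as deposited, with exact Poisson 95% intervals that cover counting error only. Gsn was the highest, with 4574 FPKM in 5 mM K+ and 3616 FPKM in 60 mM K+. This placed it at rank 7 of all listed genes in the control library and at rank 14 in the depolarized library. Dcn followed with 803 and 662 FPKM. Between 249 and 504 FPKM lay Serpinf1, Ly6a, Dpt and Clec3b in both libraries. Cd34 stood at 165 and 178 FPKM, Pi16 at 102 FPKM in both libraries, Lum at 94.8 and 61.1 FPKM, and Pdgfra was the lowest of the list with 25.5 and 18.1 FPKM. The order of neighboring genes was larger than counting error except for Ly6a above Dpt and Pi16 above Lum, both in the control library, where the intervals overlapped. In 60 mM K+ the order changed at Ly6a, which moved above Serpinf1, and at Dpt, which moved below Clec3b.

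**Figure D1:**
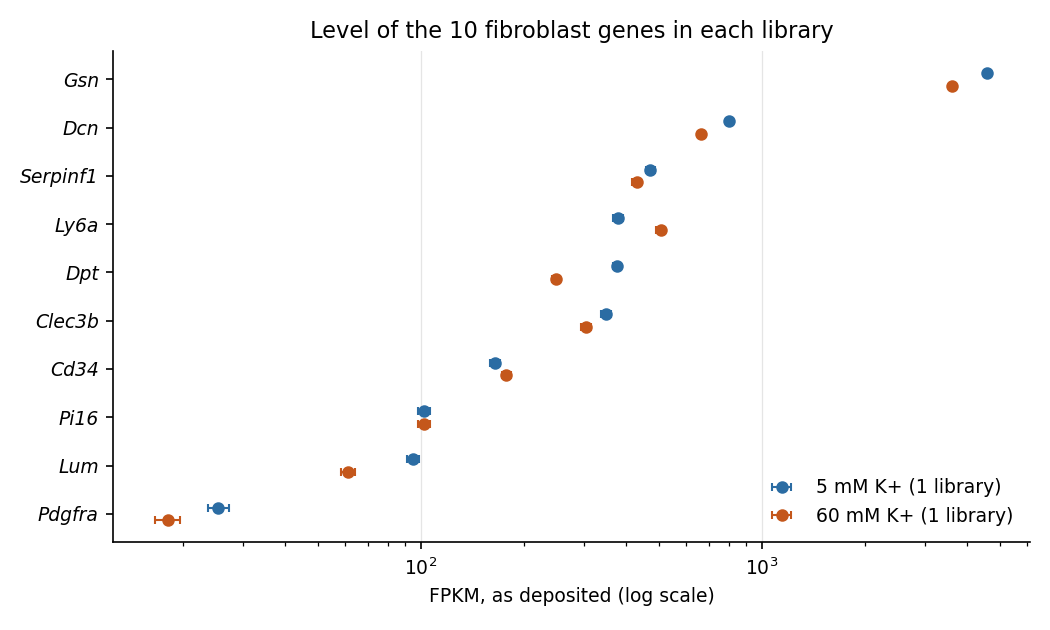
Level of each of the 10 genes in FPKM, as deposited, on a log axis, in the 5 mM K+ library (blue) and the 60 mM K+ library (orange), with 95% Poisson intervals of counting error. Gsn stands at 4574 and 3616 FPKM, far above Pdgfra at 25.5 and 18.1, and Ly6a is the gene that sits most clearly to the right in 60 mM K+.

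The FPKM values carry the gene length that the authors used. Dividing reads by FPKM returned that length: 2745 bases for Pdgfra and 1457 bases for Gsn, whereas the longest coding transcripts of these genes in the GENCODE vM1 annotation are 6570 and 2653 bases. With the longest coding transcript as length, an alternative chosen after the values were seen, Gsn would stand at 2512 FPKM and Pdgfra at 10.6 FPKM in the control library. Gsn would remain first, Dcn second and Pdgfra last in both libraries, but Serpinf1 would move from place 3 to place 6 in 5 mM K+, at 213 FPKM, and from place 4 to place 6 in 60 mM K+.

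The comparison of 5 mM K+ with 60 mM K+ asks which transcripts differ after depolarization of the artery. Differences are given as log2(fold-change) of 60 mM K+ over 5 mM K+ with library sizes set by the trimmed mean of M-values in edgeR (TMM), and with a 95% exact (Clopper-Pearson) interval that covers counting error only. None of the 10 fibroblast genes reached an absolute log2(fold-change) of 1. Above 1 lay 0 of them and 5.54% of all tested genes, and below -1 lay 0 and 5.86%. A count of 0 among 10 genes is close to these shares, which include genes with few reads. With a minimum of 50 reads, the genes past the fold fell from 822 to 412 above and from 869 to 211 below. The values ran from -0.43 for Lum to 0.62 for Ly6a, and the median was -0.03, compared with -0.00473 for all tested genes and 0.08 for the 6549 tested genes with at least 500 reads. Scaling by total counts lowers every value by 0.21, and the median of the 10 genes was then -0.24, beside -0.21 for all tested genes. The counting interval lay wholly above 0 for 4 of the 10 genes (Ly6a, Cd34, Pi16 and Serpinf1) and wholly below 0 for 5 (Lum, Dpt, Pdgfra, Gsn and Dcn). Among all tested genes these shares were 25.0% and 20.3%, and among genes with at least 500 reads, as all 10 had, they were 41.4% and 21.4%. The same shares are the background for the counts of intervals given for other gene lists below. With TMM the values were spread to both sides of 0, 5 positive and 5 negative. With total counts 2 were positive and 8 negative, with 2 intervals above 0 and 7 below. Total counts shift every gene alike, and the shares of all genes with total counts were not computed. The total-count numbers thus cannot show a tilt particular to the 10 genes.

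**Figure D2:**
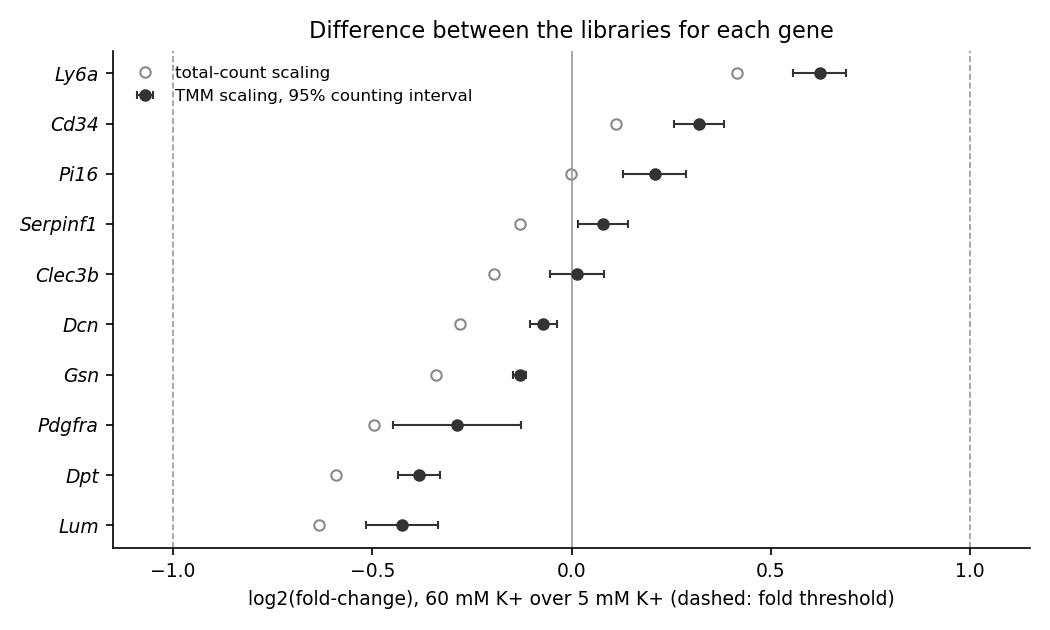
log2(fold-change) of 60 mM K+ over 5 mM K+ for each gene, with TMM scaling and its 95% counting interval (filled) and with total-count scaling (open). All values lie between the dashed lines at -1 and 1, Ly6a is the highest at 0.62 and Lum the lowest at -0.43, and total-count scaling moves each gene to the left by 0.21.

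The small leucine-rich proteoglycans Dcn and Lum encode decorin and lumican, which bind collagen fibrils and regulate their width and spacing. Dcn (chromosome 10, 96942245 to 96980777, plus strand, 8 exons in its longest coding transcript; all positions are on mm9 from GENCODE vM1) had 15129 control reads against 13424 after depolarization. Scaled to a library of 1000000 reads by TMM (CPM), these were 1343 and 1278 CPM. The log2(fold-change) was -0.07, and its interval ran from -0.10 to -0.04. Lum (chromosome 10, 97028135 to 97035337, plus strand, 3 exons) had 2433 and 1689 reads, or 216 and 161 CPM. Its log2(fold-change) of -0.43 (-0.52 to -0.34) was the lowest of the 10 genes, a level 1.34-fold lower in the depolarized library. Both proteoglycans were thus lower in 60 mM K+, under every scaling, but by unequal amounts. Their ratio does not depend on scaling: each Lum read was matched by 6.22 Dcn reads in 5 mM K+ and by 7.95 in 60 mM K+, a log2 difference of 0.35 (0.26 to 0.45).

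Dcn and Lum are neighbors, 47.4 kb apart and in the same orientation, in a cluster that continues with Kera and Epyc, which encode the proteoglycans keratocan and epiphycan. Kera had 0 reads in both libraries and Epyc had 1 read in 5 mM K+ and 0 in 60 mM K+, so the cluster was represented in these arteries by Dcn and Lum. On the list of other small leucine-rich proteoglycans, 12 of 15 genes were tested. Their median log2(fold-change) was -0.09, with 2 counting intervals above 0, 5 below 0 and 5 that held 0. The 2 genes past the fold were Chad, with 4 and 9 reads, and Nyx, with 11 and 5, and both intervals held 0. Bgn, which encodes biglycan, the closest relative of decorin, was the most abundant of them at 2817 and 2583 FPKM and had a log2(fold-change) of 0.08 (0.06 to 0.10), which turned to -0.13 with total counts. Ogn, the gene of osteoglycin, stood at -0.11 (-0.17 to -0.06). Aspn, which encodes asporin, stood at -0.31 (-0.39 to -0.22), and Podn, the gene of podocan, at -0.12 (-0.21 to -0.03).

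Dpt encodes dermatopontin, a small matrix protein that binds decorin and promotes collagen fibril assembly. It lies on chromosome 1 from 166726863 to 166754397 on the plus strand, with 4 exons. Dpt reads numbered 6791 in 5 mM K+ against 4856 in 60 mM K+, or 603 and 462 CPM. Its log2(fold-change) was -0.38 (-0.44 to -0.33), so that its level was 1.30-fold lower in 60 mM K+. The ratio of Lum to Dpt reads was 0.358 and 0.348, and the difference of -0.04 had an interval of -0.15 to 0.06, which held 0. Dpt and Lum thus shifted by amounts that counting error did not separate.

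Pdgfra encodes the receptor tyrosine kinase PDGFRα, which binds platelet-derived growth factors and is the receptor most widely used to identify fibroblasts. The gene (chromosome 5, 75548316 to 75594229, plus strand, 23 exons) had 733 reads in 5 mM K+ and 560 in 60 mM K+, or 65.1 and 53.3 CPM. The log2(fold-change) was -0.29 (-0.45 to -0.13), with the widest interval of the list because Pdgfra had the fewest reads. Pdgfrb, the receptor of pericytes, smooth muscle and fibroblasts, was higher at 2315 and 1791 reads and showed a log2(fold-change) of -0.27 (-0.36 to -0.18). Of the other type III receptor tyrosine kinases, Csf1r, the receptor of macrophages, had 62 and 34 reads, Kit, the next protein-coding gene after Pdgfra on chromosome 5, had 6 and 7, and Flt3 had 0 in both libraries. Among 18 ligands, receptors and signal transducers of the PDGF pathway other than Pdgfra, 0 were past the fold, the median was -0.03, and 5 intervals lay above 0, 5 below and 8 held 0. The ligand gene Pdgfa was covered by 1437 and 2141 reads, with a difference of 0.68 on the log2 scale (0.58 to 0.77), so that the most abundant gene of the pathway list by FPKM was higher in 60 mM K+ while both PDGF receptor genes were lower. The adaptor genes Shc1 and Crk stood at 0.27 (0.16 to 0.38) and -0.01 (-0.12 to 0.09), and the phosphatase gene Ptpn11 at -0.05 (-0.14 to 0.03).

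Cd34 and Ly6a encode surface proteins of adventitial progenitor-like fibroblasts and of endothelial cells, and they were the 2 highest values of the list. Cd34, a sialomucin gene on chromosome 1 from 196765015 to 196787486 (plus strand, 8 exons), had 3787 reads in 5 mM K+ and 4404 in 60 mM K+, 336 and 419 CPM. The log2(fold-change) was 0.32 (0.26 to 0.38), and 0.11 with total counts. The noncoding gene Gm16897 lies across Cd34 in antisense and has no entry in the deposited counts. No source states whether counting used strand, so any reads of Gm16897 cannot be told apart from those of Cd34. The related sialomucin gene Podxl, which encodes podocalyxin and is expressed by endothelium, showed a similar value of 0.28 (0.23 to 0.33), with 6448 and 7294 reads. Podxl2 had 151 and 163 reads, a log2(fold-change) of 0.21 (-0.12 to 0.54).

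Ly6a encodes SCA-1, a surface protein held by a lipid anchor. It is a compact gene of 3 exons on chromosome 15 from 74825308 to 74828064 on the minus strand. Its reads numbered 3109 in 5 mM K+ against 4464 in 60 mM K+, or 276 and 425 CPM. This 1.54-fold higher level, a log2(fold-change) of 0.62 (0.56 to 0.69), was the largest difference of the 10 genes with TMM. With total counts it was 0.41, smaller in size than those of Lum, Dpt and Pdgfra at -0.63, -0.59 and -0.50. Neighboring members of the Ly6 cluster were higher as well. Ly6c1, 47.4 kb away, was read 2980 and 4648 times, a difference of 0.74 (0.68 to 0.81), and Ly6e, 35.0 kb away on the other side, had 4076 and 4762 reads and 0.33 (0.27 to 0.39). Ly6i, the nearest neighbor, had 1 and 2 reads, and Ly6c2 had 34 and 41. Ly6 genes are close copies of one another, so that the division of reads between Ly6a, Ly6c1 and Ly6c2 is uncertain. Of the Ly6 family list 7 genes were tested, with a median of 0.33, 3 intervals above 0 and 0 below. The family member past the fold, Ly6g6d, had only 12 and 5 reads, and its interval held 0. Cd59a, a family member that blocks complement and lies elsewhere in the genome, was among the 3 at 0.29 (0.22 to 0.37), and Gpihbp1, which carries lipoprotein lipase to capillary endothelium, had 49 and 38 reads, with an interval that held 0.

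Markers of endothelial cells moved with Cd34 and Ly6a. Of 18 endothelial genes tested, 14 had a counting interval above 0, 1 had it below 0 and 3 intervals held 0. Intervals lay above 0 for 25.0% of all tested genes and 41.4% of those with at least 500 reads. Below 0 the shares were 20.3% and 21.4%. The endothelial median log2(fold-change) was 0.38, and 0.17 with total counts. The summed level of the 18 genes was 2302 FPKM in 5 mM K+ and 2685 FPKM in 60 mM K+. Pecam1, the gene of the endothelial adhesion molecule CD31, had 19497 and 25719 reads, a log2(fold-change) of 0.50 (0.47 to 0.53). Values for Vwf (0.28), Esam (0.44) and Eng (0.36), genes of von Willebrand factor, a junction protein and the coreceptor endoglin, were also positive. Nos3, which encodes the endothelial nitric oxide synthase, was past the fold at 1.10 (0.99 to 1.21) but stood at 0.89 with total counts. Past it in the other direction was Kdr, a receptor for vascular endothelial growth factor, at -1.10 (-1.52 to -0.70) with only 168 and 73 reads. The part of endothelial RNA in the values of Cd34 and Ly6a was not tested. Without this pair of genes, the 8 other fibroblast genes had a median of -0.10, with 2 intervals above 0, 5 below and 1 that held 0. For genes with at least 500 reads, as all 8 had, 41.4% of intervals lay above 0 and 21.4% below. Together these 8 genes took 1.00% of reads in 5 mM K+ and 0.798% in 60 mM K+. These are shares of total counts, and in 5 mM K+ Gsn supplied 69849 of their 105089 reads. With TMM the log2(fold-change) of their summed reads was -0.12.

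Pi16, Clec3b and Serpinf1 encode secreted or surface-bound proteins of the CAP, lectin and serpin families. Pi16, a CAP superfamily gene and the marker of universal perivascular fibroblasts, lies on chromosome 17 from 29455822 to 29466358 (plus strand, 7 exons). Pi16 had 2447 reads in 5 mM K+ and 2635 in 60 mM K+, 217 and 251 CPM, a log2(fold-change) of 0.21 (0.13 to 0.29). With total counts the value was -0.00044, so that its direction rests on the scaling. Clec3b, which encodes tetranectin, a plasminogen-binding lectin, lies on chromosome 9 from 123060064 to 123066548 (plus strand, 3 exons). Clec3b had 3626 and 3411 reads, 322 and 325 CPM, and was the only one of the 10 genes whose interval held 0, with a log2(fold-change) of 0.01 (-0.05 to 0.08). Serpinf1 encodes the antiangiogenic factor PEDF and lies on chromosome 11 from 75223271 to 75236203 on the minus strand, with 8 exons. It had 4081 and 4018 reads, 362 and 383 CPM, and a log2(fold-change) of 0.08 (0.02 to 0.14). For Clec3b and Serpinf1, too, the sign turned with total counts, to -0.20 and -0.13. The sign of all 3 genes therefore depends on the choice of scaling. Their ratios do not, and Pi16 was separated from Clec3b by a log2 difference of 0.19 (0.09 to 0.30). From Serpinf1 it was separated by 0.13 (0.03 to 0.23).

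Within the CAP superfamily, Pi16 was not the gene with the largest difference. Crispld2, which encodes a secreted CAP protein and responds to glucocorticoids, had 20881 reads in 5 mM K+ and 51418 in 60 mM K+, a log2(fold-change) of 1.40 (1.38 to 1.42), and stayed above 1 with total counts at 1.19. Crispld1 had 178 and 234 reads (0.50, interval 0.21 to 0.79), Glipr2 had 264 and 310 (0.33, interval 0.09 to 0.58) and Glipr1 had 38 and 33. Of the 11 CAP genes other than Pi16, 6 had 0 reads in both libraries.

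Gsn encodes gelsolin, which severs and caps actin filaments within cells and has a secreted form in plasma that comes from the same gene. It spans 51.5 kb of chromosome 2, from 35111927 to 35163420 on the plus strand, with 17 exons in its longest coding transcript. Reads were counted per gene, so that the 2 forms were not separated. Gsn reads numbered 69849 in 5 mM K+ against 59473 in 60 mM K+, or 6200 and 5663 CPM, which was 0.666% and 0.527% of all reads on genes. The log2(fold-change) was -0.13 (-0.15 to -0.11), with the narrowest interval of the list, and the sign held under every scaling. Among 7 other genes of the gelsolin superfamily, 0 were past the fold and the median was 0.04. Flii and Capg, actin regulators related to gelsolin, stood at 0.04 (-0.05 to 0.12) and 0.05 (-0.11 to 0.21), Svil, the gene of supervillin, a protein prominent in smooth muscle, at -0.28 (-0.35 to -0.20), and Vill had 78 and 55 reads. Smooth muscle genes had a median of 0.08 over 18 genes tested, with 12 intervals above 0 and 4 below, but with total counts the median was -0.12 and 12 of the 18 values were negative, against 6 with TMM. Their summed level was 32450 FPKM in 5 mM K+ and 32787 FPKM in 60 mM K+, led by Acta2 at 0.20 (0.19 to 0.20), Myl9 at 0.33 (0.31 to 0.34), Myh11 at 0.05 (0.04 to 0.06) and Des at 0.26 (0.24 to 0.28). Gsn was lower in 60 mM K+ while these 4 most abundant smooth muscle genes were higher. The 4 smooth muscle genes with intervals below 0 went the way of Gsn: Smtn (-0.14), Lmod1 (-0.16), Notch3 (-0.25) and Myocd (-0.53). With total counts Acta2 and Myh11 turned to -0.01 and -0.16. What share of Gsn reads came from smooth muscle was not tested.

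The differences among the 10 genes can also be read without scaling. Because reads of 2 genes within a library share the same scaling, the ratio of each pair of genes is free of it. Of the 45 pairs of the 10 genes, 40 had a ratio that differed between the libraries by more than counting error, by normal approximate 95% intervals without correction for the number of pairs, and 5 did not. Such separation was common at this depth: it held for 73.7% of all pairs of the 3234 genes with at least the 1293 reads of Pdgfra, the shallowest of the 10, so the count is not particular to the fibroblast genes. The widest gap was between Lum and Ly6a: there were 0.783 Lum reads for each Ly6a read in the control and 0.378 at 60 mM K+, a log2 difference of -1.05 (-1.16 to -0.94). Dpt against Ly6a followed at -1.01 (-1.09 to -0.92). Lum and Pi16 were nearly equal in reads in the control library, at a ratio of 0.994, but not in the depolarized library, at 0.641. The 5 pairs not separated by counting error were Pdgfra with Lum, Dpt and Gsn, Lum with Dpt, and Clec3b with Serpinf1. Dcn, though a matrix gene, was separated from both Lum and Dpt.

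**Figure D3:**
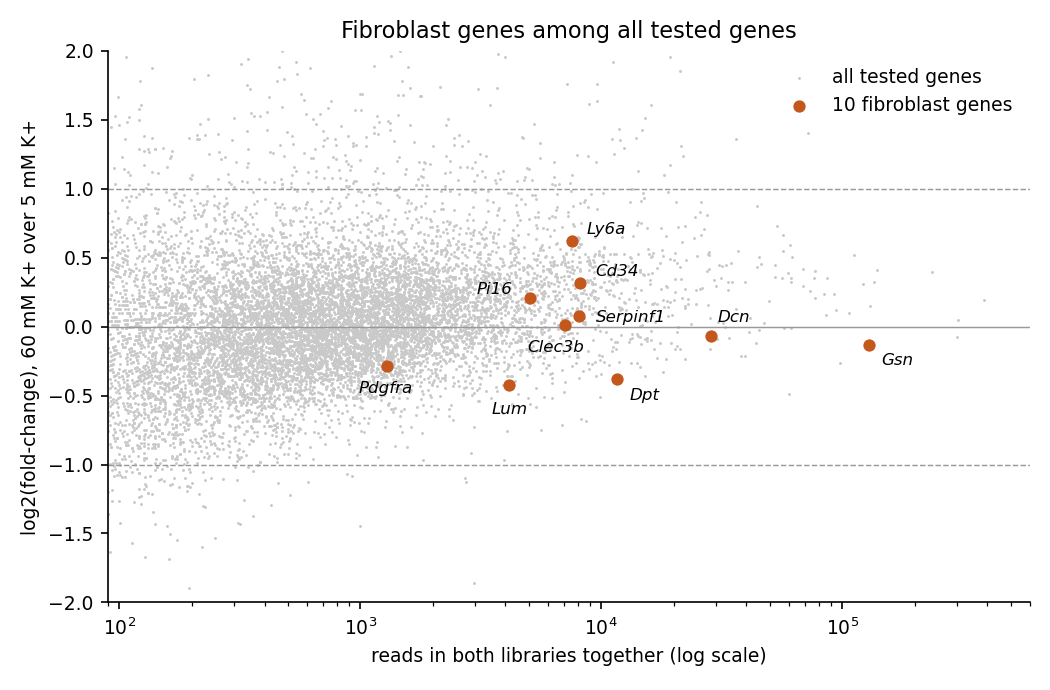
log2(fold-change) of 60 mM K+ over 5 mM K+ against reads in both libraries together (log axis) for the 10925 tested genes with at least 90 reads (gray, of which 55 lie beyond the drawn range) and the 10 fibroblast genes (orange). The fibroblast genes lie within the dashed lines at -1 and 1, with Lum, Dpt and Pdgfra in the lower and Ly6a in the upper part of the cloud.

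In relation to all genes of similar depth, 3 of the genes lay toward the lower end. Of the 6549 tested genes with at least 500 reads, 5.13% had a lower value than Lum, 6.50% a lower value than Dpt and 11.7% a lower value than Pdgfra. Gsn and Dcn stood at percentiles 25.0 and 31.7, Clec3b and Serpinf1 at 41.9 and 49.7, and Pi16 and Cd34 at 64.8 and 75.6. Ly6a was at percentile 92.1. These percentiles describe where the genes lay between these libraries and are not affected by scaling.

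A wider list of 40 further fibroblast genes, of which 39 were tested, extended the lower side. Their median log2(fold-change) was -0.18, with 9 intervals above 0, 21 below and 9 that held 0. Among all tested genes 25.0% of intervals lay above 0 and 20.3% below, and among genes with at least 500 reads 41.4% and 21.4%. With TMM and upper-quartile scaling 27 of the 39 values were negative, and with total counts 31. What share of the reads of this list came from smooth muscle was not tested. The summed level of the list was 8050 FPKM in the control library and 6371 FPKM in the depolarized library. FPKM is scaled by total counts, and with TMM the log2(fold-change) of the summed reads was -0.18. The 3 collagen genes at the top of the list were all lower: Col3a1 had 36261 and 24034 reads (-0.49, interval -0.52 to -0.47), Col1a2 had 23529 and 20172 (-0.12, interval -0.15 to -0.09) and Col1a1 had 17966 and 15839 (-0.08, interval -0.11 to -0.05). Fstl1, the gene of a secreted follistatin-like glycoprotein, stood at -0.08 (-0.13 to -0.03). Past the fold were Has1, which encodes a hyaluronan synthase, at 1.53 (1.36 to 1.70), and Ackr3, a scavenging chemokine receptor, at 1.06 (0.96 to 1.16), but Ackr3 fell below 1 with total counts, at 0.85. Fbn1, the gene of fibrillin-1, with 2660 and 1267 reads, stood at -0.97 (-1.07 to -0.87) and passed the fold with total counts, at -1.18, so that 3 genes of the list were then below it. On the other side, Efemp1, the gene of fibulin-3, had 139 and 58 reads (-1.16, interval -1.63 to -0.71), and Ebf2, with 34 and 14 reads, was under the 50 reads set for naming genes by fold and is named to complete the count. Among genes of activated fibroblasts, 1 of 15 was past the fold, Timp1, an inhibitor of matrix metalloproteinases, at 1.38 (1.10 to 1.66). Fn1, Postn and Tgfbi, matrix genes of that list, stood at -0.21, -0.11 and -0.22, and the most abundant gene of the list, Acta2, at 0.20. The median of that list was -0.11, with 5 intervals above 0, 6 below and 4 that held 0, and Lox, Tnc and Comp, matrix genes outside the rule for naming, were also higher at 0.51, 0.56 and 0.64. On the list of collagen and TGF-β partners of the proteoglycans, 0 of 16 genes were past the fold, and the median was -0.08 with 5 intervals above 0 and 9 below.

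**Figure D4:**
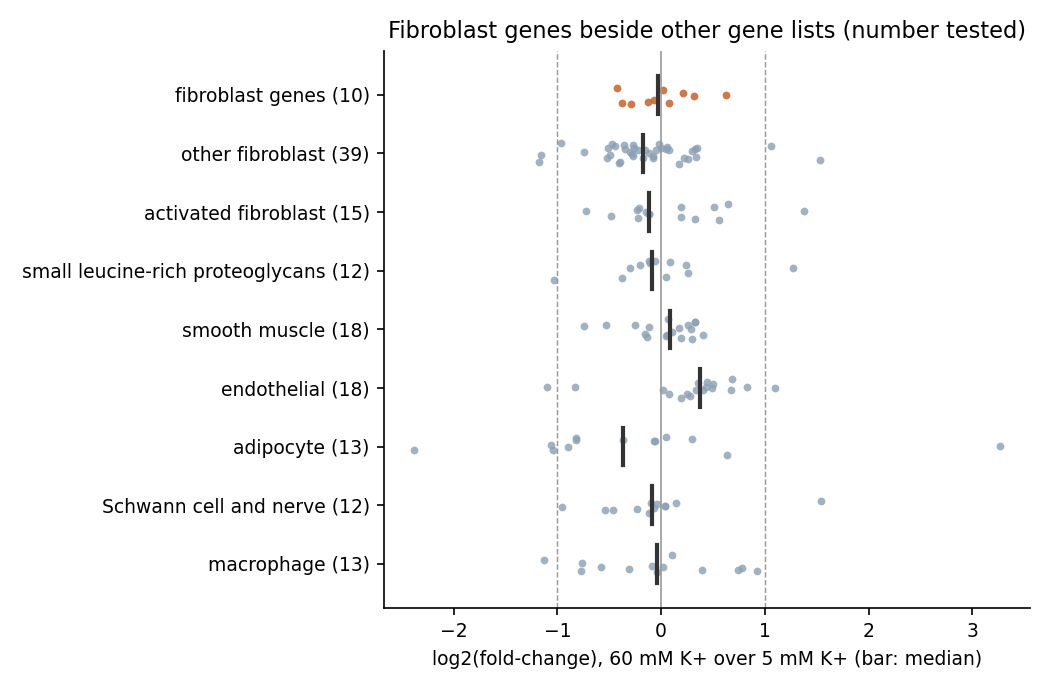
log2(fold-change) of each tested gene (points) and the median (bar) for the 10 fibroblast genes (orange) and for lists of other genes (blue-gray; number of tested genes in brackets, the 10 genes left out). The median is -0.03 for the 10 genes, -0.18 for other fibroblast genes, 0.08 for smooth muscle, 0.38 for endothelial genes and -0.37 for adipocyte genes.

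Genes of other cells of the adventitia and of adjoining fat were read beside these values. Of 13 adipocyte genes tested, 3 intervals lay above 0 and 8 below, the median was -0.37 and the summed level was 497 FPKM in 5 mM K+ and 384 FPKM in 60 mM K+. The most abundant of them, the lipase gene Pnpla2, was higher at 0.29 (0.21 to 0.38), the lipid droplet gene Plin4 stood at -0.07 (-0.12 to -0.02) and Lpl, the gene of lipoprotein lipase, at -0.37 (-0.50 to -0.25). The log2(fold-change) of the summed reads of the list was -0.10. Plin1, which coats lipid droplets, had 101 and 18 reads (-2.39, interval -3.20 to -1.65), and Cfd, the gene of adipsin, had 607 and 270 (-1.07, interval -1.28 to -0.86). Adiponectin, from Adipoq, stood at -1.04 (-1.59 to -0.51) with 97 and 44 reads, whereas Lep, the leptin gene, was above the fold with only 1 and 9 reads. Schwann cell and nerve genes had a median of -0.08 over 12 genes, with 157 and 124 FPKM in all and only Tubb3, at 7 and 19 reads, past the fold. Of its more abundant genes, Cdh19 stood at -0.04, Mbp at -0.24 and Gfra3 at -0.12, with the interval of Mbp below 0 and those of Cdh19 and Gfra3 holding 0. Macrophage genes had a median of -0.04 over 13 genes, with 60.0 and 50.5 FPKM in all, and the complement genes C1qa, C1qb and C1qc had 119 and 112, 85 and 104, and 85 and 85 reads. The part of adhering perivascular tissue in the fibroblast values was not tested.

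Gene length moved with the differences. Among the 6549 genes with at least 500 reads, the median log2(fold-change) was 0.28 in the shortest of 5 length classes of like size (57 to 1166 bases) and stepped down through 0.13, 0.05 and -0.02 to -0.07 in the class of the longest genes. Spearman's rho between length and log2(fold-change) was -0.32 across these genes, which share 2 libraries and are not independent replicates. The fibroblast genes at the high end include the shortest, Ly6a with 784 bases, and those at the low end include the longest, Pdgfra with 2745 bases and Lum with 2448. Set against the median of its own length class, Ly6a stood at 0.35 and Cd34 at 0.34, while Lum stood at -0.41, Dpt at -0.43 and Pdgfra at -0.27. Serpinf1 and Clec3b, both short by the length behind the FPKM values, stood at -0.20 and -0.26 on this scale. Gsn stood at -0.26, Dcn at -0.12 and Pi16 at 0.23, and the median of the 10 genes was -0.23. Lum, Dpt, Pdgfra, Gsn and Dcn remained negative and Ly6a, Cd34 and Pi16 remained positive, whereas Serpinf1 and Clec3b changed sign. For Serpinf1 this rests on the length used: 828 bases lie behind its FPKM, but its longest coding transcript has 1832. That length falls in the class of 1609 to 2120 bases, whose median of 0.05 lies below the 0.08 of Serpinf1. Gsn, with 1457 against 2653 bases, Pdgfra, with 2745 against 6570, and Lum, with 2448 against 2075, would also change class. Each would still lie below the median of its new class, by a different amount. What part length has in the single values was not tested, and the comparison with genes of like length was chosen after the values were seen.

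**Figure D5:**
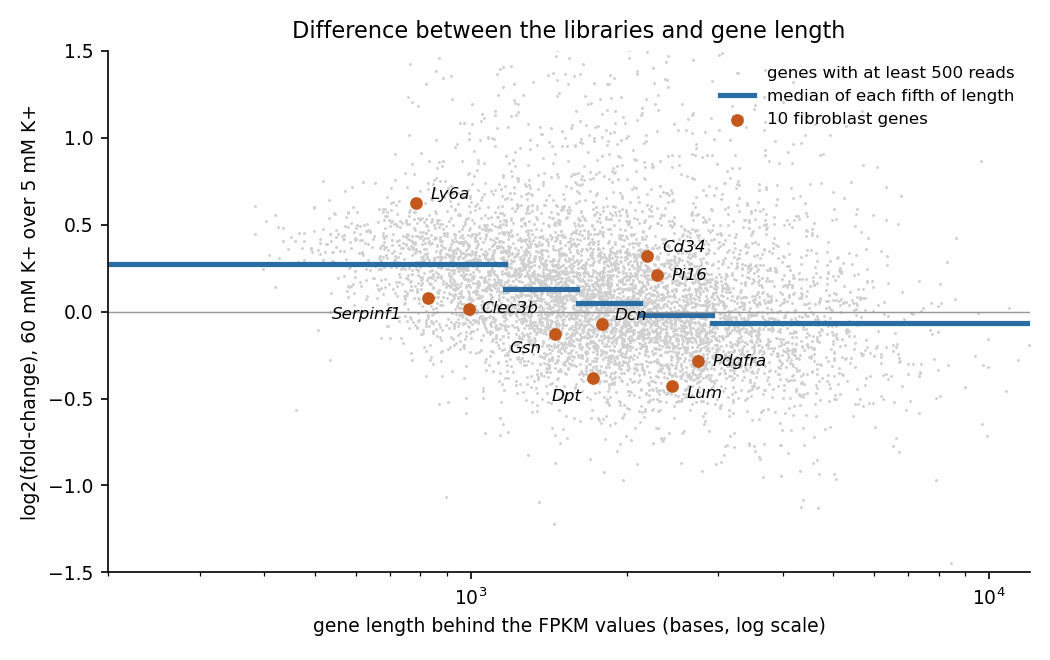
log2(fold-change) of 60 mM K+ over 5 mM K+ against the gene length behind the FPKM values (bases, log axis) for genes with at least 500 reads (gray, 74 of which lie outside the drawn range), with the median of each of 5 length classes (blue bars) and the 10 fibroblast genes (orange). The bars step down from 0.28 to -0.07 with length, and Lum and Dpt lie below, Ly6a and Cd34 above, the bar at their length.

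Promoter sequence was available from RefSeq for 6 of the 10 genes (Cd34, Dpt, Gsn, Pdgfra, Pi16 and Serpinf1), on GRCm38.p6, with 8 starts in all because Gsn has 3. The entries of Dcn, Lum, Ly6a and Clec3b were not in that table. Shown are the 250 bases before the start of the 2 genes at the low end, Dpt and Pdgfra, and of Cd34 at the high end, each of which matched 1 place in the mm9 genome on the plus strand: chr1:166726544-166726793 for Dpt, chr5:75548026-75548275 for Pdgfra and chr1:196764765-196765014 for Cd34. They are written 5′ to 3′, and capitals mark a GAS motif (TTCNNNGAA, a site form of STAT factors) in Dpt and the core of the cAMP response element (TGACG, here as its reverse complement CGTCA) in Pdgfra.
Dpt: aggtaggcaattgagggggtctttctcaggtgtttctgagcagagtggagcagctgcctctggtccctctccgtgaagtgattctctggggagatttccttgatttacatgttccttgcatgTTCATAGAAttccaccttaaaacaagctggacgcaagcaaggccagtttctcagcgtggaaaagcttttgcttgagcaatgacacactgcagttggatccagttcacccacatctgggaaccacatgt
Pdgfra: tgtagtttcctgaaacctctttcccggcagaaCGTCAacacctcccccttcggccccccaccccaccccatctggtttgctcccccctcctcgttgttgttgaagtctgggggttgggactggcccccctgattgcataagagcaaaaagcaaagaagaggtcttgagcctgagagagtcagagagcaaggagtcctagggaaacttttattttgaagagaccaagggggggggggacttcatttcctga
Cd34: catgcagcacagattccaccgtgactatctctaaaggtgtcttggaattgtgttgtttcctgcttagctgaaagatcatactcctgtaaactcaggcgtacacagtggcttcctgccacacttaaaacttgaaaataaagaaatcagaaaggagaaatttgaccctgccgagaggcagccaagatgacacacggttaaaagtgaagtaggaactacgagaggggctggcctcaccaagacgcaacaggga

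Both strands of all 8 windows were searched for 6 motifs. The full cAMP response element (TGACGTCA, which contains the core on both strands), the AP-1 motif (TGANTCA) and the TATA motif (TATAAA) were in none of the 8 windows, while 1.55%, 6.75% and 12.37% of the 32851 promoters in the table hold them. The core alone was in 1 window, that of Pdgfra, from 218 to 214 bases before the start, and 17.77% of all promoters hold it. The GAS motif was in 1 window, that of Dpt, from 128 to 120 bases before the start, and 7.02% of all promoters hold it. A GC box (GGGCGG) was in all 3 windows of Gsn and in none of the other genes, beside 32.74% of all promoters. The share of G and C was 48.8% for Dpt, 54.4% for Pdgfra and 46.4% for Cd34, and the median of all promoters was 52.4%. These matches describe letters in these windows and are not evidence of binding.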

How the data were processed

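RNA-seq was measured in 2 libraries of mouse mesenteric artery, 1 in 5 mM K+ and 1 in 60 mM K+, each pooled from 2 mice. Libraries were poly(A)-selected. The deposited tables hold raw counts of reads per gene, which the authors obtained after alignment to mm9. The submitters' processing notes name TopHat2 2.0.12, HTSeq 0.6.1, edgeR 3.0.8 and the builds mm8 and mm9. The annotation is not given in the sources used here. The authors also deposited FPKM values, scaled by total reads and by a gene length of their own. A summed FPKM of a list thus compares the libraries on the scale of total counts, where log2(fold-change) is 0.21 lower than with TMM. The identifiers were matched to GENCODE vM1 (NCBIM37, mm9) for 32601 of 55573 genes, and the others were used without a symbol. Of 274 entries on the gene lists, 5 matched no identifier in the tables.

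For TMM, edgeR 4.0.16 under R 4.3.3 gave factors of 1.07 for 5 mM K+ and 0.930 for 60 mM K+; the alternatives were computed with edgeR and DESeq2 1.42.0, and intervals with scipy 1.17.1 in Python 3.11.15. With 1 library per group no test of the conditions could be fitted, and the read-sampling test in the study's methods, which compares reads of 2 libraries, was not used: a gene counted as past the fold above a log2(fold-change) of 1 or below -1. A count of 0 in 1 library was set to 0.5 reads. Intervals cover counting error only and treat every read as an independent draw. PCR reads without molecular identifiers are not independent molecules, so that the intervals can be too narrow even for counting error. The interval was tested on simulated counts drawn as independent Poisson reads, the model that it assumes. That test checks the calculation and cannot show how well the interval fits these libraries.

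The 10 genes and the gene lists were chosen with earlier results of these data known. All 10 genes are named, and, from each list, up to 4 genes with the highest mean FPKM, up to 4 with the largest absolute log2(fold-change) above 1 among those with at least 50 reads, and gene neighbors of the same family. Some genes were named outside this rule, after their values were seen, to complete a count or a list. They are Flt3, Ebf2, the shallow genes past the fold (Chad, Nyx, Ly6g6d, Lep and Tubb3), Fbn1, Lox, Tnc, Comp, Smtn, Lmod1, Notch3 and Myocd. With 2 libraries, no likeness of patterns between genes was computed. One gene that this rule takes from the Schwann cell and nerve list is not reported here. Figures were drawn with matplotlib 3.10.9.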

Additional observations from a re-analysis of the deposited data

How the results depend on the processing

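With 1 library per condition, these settings show how far scaling, filters and gene length move the values, not how far animals differ. The 10 genes had a median of -0.03 on the log2 scale, and it was -0.24 with total-count scaling and with FPKM at pseudocounts of 0.1 and 1, -0.10 without Cd34 and Ly6a, -0.11 relative to the median of smooth muscle genes and -0.23 relative to genes of like length, the last 2 chosen after the values were seen. By construction, total counts and FPKM, which is scaled by total counts, shift every gene alike. Without Gsn the median was 0.01, within the counting interval of a typical gene of the list, and upper-quartile scaling, median-of-ratios scaling and 3 other minimum levels also kept it within that width. With a fold threshold of 0.5 the number of genes past it was 1 (Ly6a) above and 0 below. With total counts 2 intervals lay above and 7 below 0, and with 99% intervals 3 above and 5 below. Shares of all genes were not computed for these settings or for the threshold of 0.5. The counts therefore show only the effect of each setting. Over the 10 genes and 6 settings, 37 values moved beyond the counting interval and 23 did not. These are not separate results: all 10 genes moved with total counts and with each FPKM setting, which apply nearly the same shift. Relative to genes of like length 5 moved, with upper-quartile scaling 2 and with median-of-ratios scaling 0.

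Over all tested genes, 822 were above and 869 below the fold. With no minimum of reads these were 3081 and 2491, with at least 50 reads 412 and 211, and with a CPM of at least 1 in both libraries 424 and 240, because fewer or more shallow genes are tested. Total counts gave 601 above and 1285 below, so that most genes past the fold were then lower. No paired analysis was possible because there is 1 library in either condition.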

Other observations

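Other cell types that an artery preparation can hold were nearly absent or low, which bears on which cells stand beside the fibroblasts. Of 12 mesothelial genes matched, 4 were tested, and Msln, Upk3b, Upk1b, Lrrn4, Krt8 and Bnc1, genes of the cell layer that covers the mesentery, had 0 reads in both libraries. Gpm6a, with 30 and 10 reads, was past the fold, and Krt18, Cldn15 and Rspo1 had between 18 and 45 reads in each library. Of 11 lymphocyte genes, 1 had at least 10 reads, Ighm with 24 and 10. Lymphatic endothelial genes had a median log2(fold-change) of -0.62 over 6 genes, with 1 interval above 0, 3 below and 2 that held 0. The most abundant of them, Pdpn, the gene of podoplanin, was higher at 203 and 340 reads (0.85, interval 0.59 to 1.10), Flt4 stood at 0.09, Mmrn1 at -0.61 and Lyve1, a hyaluronan receptor that macrophages of the adventitia also carry, had 318 and 135 reads (-1.13, interval -1.44 to -0.84). Red blood cell genes had a median of -0.64 over 5 genes and 166 FPKM in 5 mM K+ against 91.8 FPKM in 60 mM K+ in all, and the hemoglobin genes Hbb-b1, Hba-a1, Hba-a2 and Hbb-b2 stood at -0.56, -0.64, -0.81 and -0.97.

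Pancreatic genes had more reads in 60 mM K+: 9 of 10 tested genes were above the fold, from 169 reads in all in 5 mM K+ to 560 reads in 60 mM K+. Pnlip, the pancreatic lipase gene, had 2 and 61 reads, Cela2a had 3 and 51, Cela1 had 30 and 78, Ctrb1 had 21 and 129 and Cpb1 had 98 and 138. The part of these cells in the fibroblast values was not tested.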
